A study of Mus musculus with 12 samples.

Results

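A set of 29 transcription factors of the developing forebrain was followed through 12 mRNA-seq libraries of primary mouse cortical endothelial cells (ECs), the cells that line brain vessels. They are the 29 rows, of 21611 genes analysed, whose symbol is on a list of known factors of forebrain patterning, neurogenesis, gliogenesis and neuronal differentiation; the rule itself uses no measured value. By role they comprise 6 dorsal patterning factors, 7 of the dorsal neurogenic cascade, 4 ventral factors, 3 oligodendrocyte lineage factors, 4 neural progenitor factors and 5 factors of neuronal identity. All cells were wild type. There were 4 libraries of adult ECs treated with MS-275, an inhibitor of class I histone deacetylases (10 µM), 2 of adult ECs treated with the ligand Wnt3a (200 nM in the labels, 200 ng/ml in the methods), 3 of adult control ECs and 3 labelled as ECs from embryos at E13.5. The methods give 48 h for the treatments and 2 to 3 months as the age of the male adult donors, while the results text gives 3 to 4 months. Cells of a litter were pooled, grown on collagen and used at passage 2, with a stated purity of more than 90% by CD31 and isolectin B4. The methods count 2 MS-275 replicates where 4 libraries are labelled as such.

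Forebrain regions are laid out early by homeodomain and LIM factors that divide the dorsal pallium, source of cortical glutamatergic neurons, from the ventral subpallium, source of interneurons and of the first oligodendrocyte precursors. Within the pallium, proneural bHLH proteins of the neurogenin family start a cascade that runs through T-box and NeuroD proteins, and these genes are known as markers of neurons and their progenitors, not of endothelium. In cells outside the nervous system many of them are held silent by Polycomb marks on their chromatin, and the repressor REST, which recruits histone deacetylases, keeps neuronal genes off.

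Values are normalized counts, that is, reads on a gene divided by a size factor of the library. A library held 20804279 to 33149580 reads on genes, and 1 read was worth about 1 normalized count. The label of the E13.5 cells was checked against defining markers. The 8 endothelial markers (Pecam1, Cdh5, Tie1, Erg, Tek, Kdr, Emcn and Cldn5) summed to 224662 to 290948 in the adult control libraries and to 779 to 1178 in the libraries labelled E13.5, where Cldn5 had no read in replicates 2 and 3 and Erg none in replicate 1. Sox2, a factor of neural stem cells, had no read in an adult library and 4052, 4878 and 4683 in the E13.5 libraries. Of 8 neural progenitor markers 7 were lower in adult control than at E13.5, as were 32.8% of all genes tested (limma, adjusted p under 0.05). Of 10 neuron markers 9 were lower and 1 higher, and of 5 astrocyte markers tested 4 were lower. The E13.5 libraries thus carried RNA of neural progenitors, neurons and astrocytes, and endothelial RNA at a low level. In bulk samples fewer cells of a type and less RNA per cell cannot be told apart. Some replicates were far more alike than others: MS-275 2 and 4, MS-275 1 and 3, adult control 1 and 2, and E13.5 2 and 3 differed by a chi-square of 5.07 to 29.3 per gene, the other pairs of those groups by 83.6 to 279. If these are not separate cultures, the p-values measure a smaller spread than that between cultures.

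**Figure D1:**
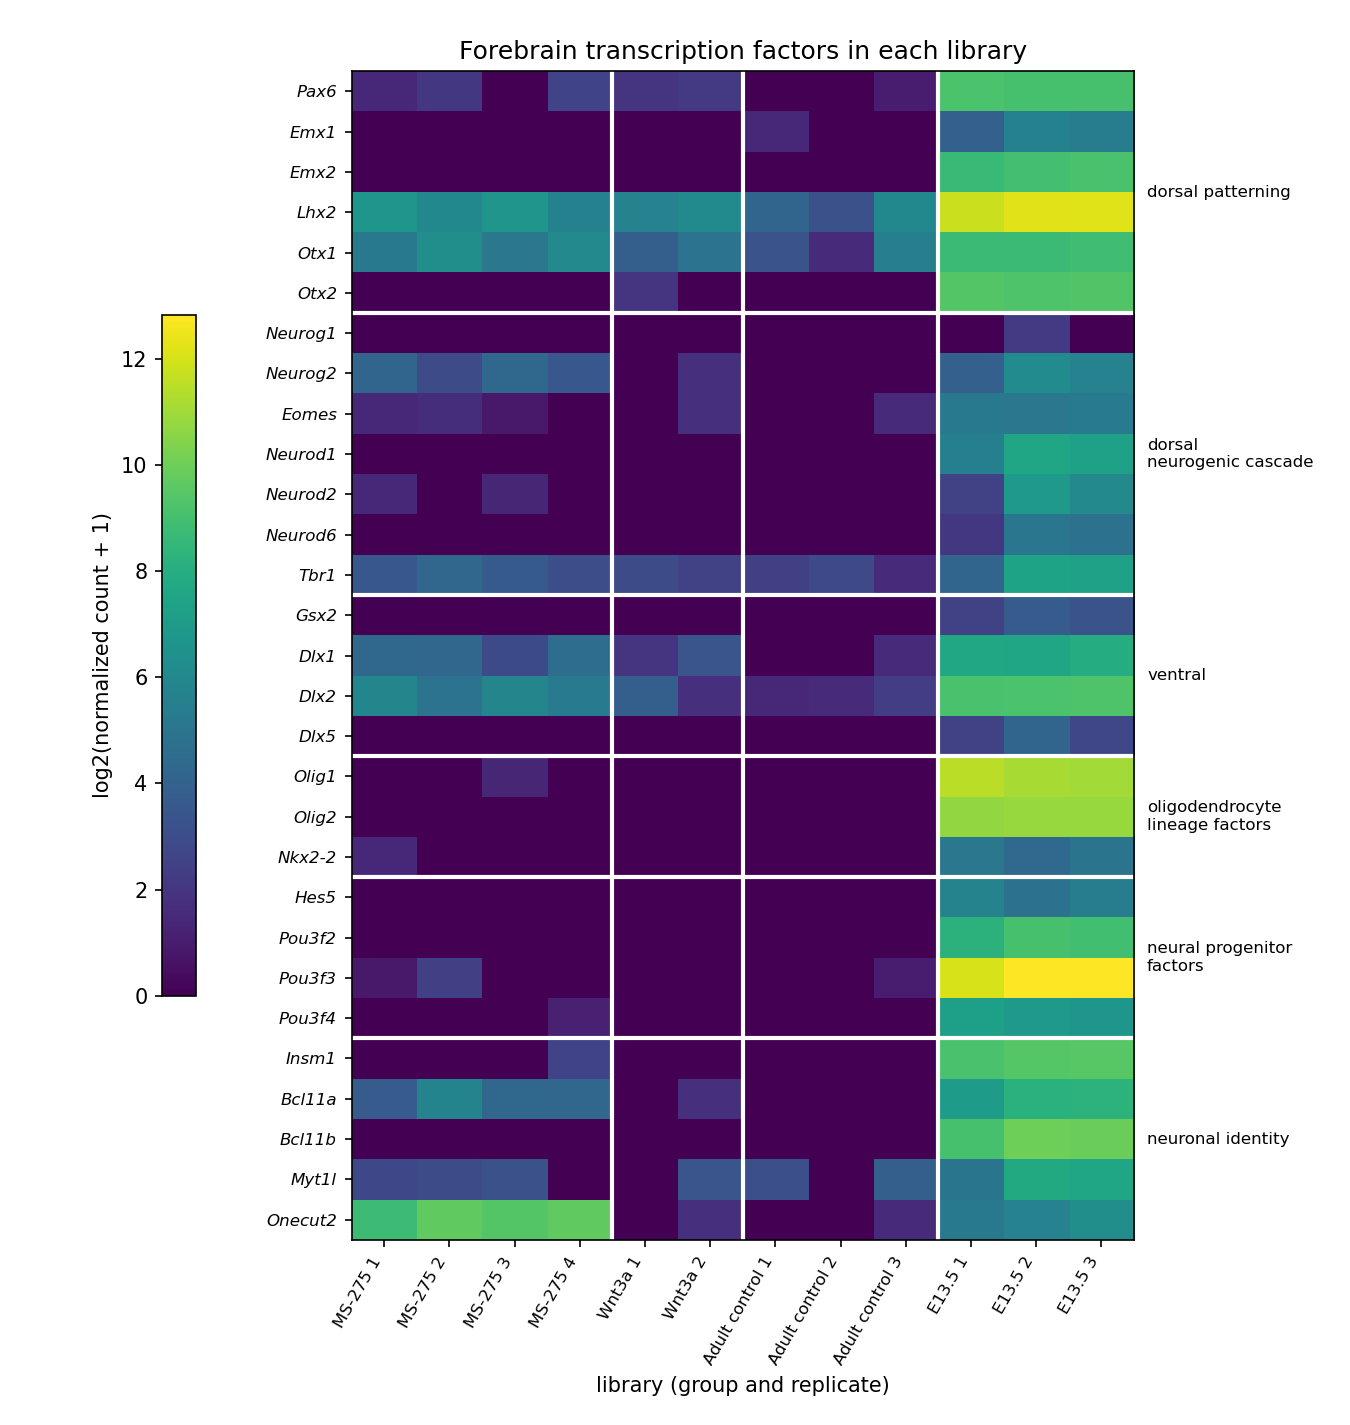
Heat map of the 29 factors (rows, by role) in each of the 12 libraries (columns), colored by log2(normalized count + 1). The E13.5 columns are bright for most factors, the adult columns are dark, and Onecut2 is brighter with MS-275 than at E13.5.

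Sequence before the start site was compared first, since MS-275 acts on chromatin. RefSeq (GRCm38.p6) listed 33 starts for 24 of the 29 members. No start was listed for Insm1, Dlx5 and Olig1, nor for Onecut2 and Otx1, which passed the test with MS-275. In the 250 bases before a start, the promoters of the 5 listed members that passed the test with MS-275 held 8 to 25 CpG dinucleotides (median 23 over 6 starts), and those of the 9 listed members with no read in any adult library held 3 to 32 (median 22 over 9 starts). The ranges overlap, so among the listed members CpG number in this window did not separate factors that rose from factors that stayed unread. For Onecut2, the member that rose most, this could not be looked at. Over all 32851 listed promoters the median was 6 and the upper quartile 16, and 13 of the 33 member promoters (39.4%) reached that quartile, against 25.4% of all promoters. The E-box CANNTG, read on both strands and recognized by bHLH proteins, was present in 18 of 33 (54.5%) against 66.2% of all promoters, and the GC box GGGCGG in 16 (48.5%) against 32.7%. These shares count starts, not genes. Myt1l and Otx2 have several starts each, none of which reached the upper quartile of CpG number. The promoters below are shown to make the overlap visible, each written 5′ to 3′ with CpGs in capitals, with 3 genes that were called with MS-275 first and 3 without an adult read after them.
Dlx2: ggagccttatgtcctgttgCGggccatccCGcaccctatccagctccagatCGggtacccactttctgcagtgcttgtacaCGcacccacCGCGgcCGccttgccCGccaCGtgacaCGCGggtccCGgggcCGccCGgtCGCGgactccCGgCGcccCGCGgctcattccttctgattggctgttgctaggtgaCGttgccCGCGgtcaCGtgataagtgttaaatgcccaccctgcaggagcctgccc
Neurog2: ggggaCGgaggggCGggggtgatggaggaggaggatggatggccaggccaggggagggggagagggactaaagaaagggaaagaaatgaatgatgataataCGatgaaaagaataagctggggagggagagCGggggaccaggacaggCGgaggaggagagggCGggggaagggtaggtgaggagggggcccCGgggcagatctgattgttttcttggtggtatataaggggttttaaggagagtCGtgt
Lhx2: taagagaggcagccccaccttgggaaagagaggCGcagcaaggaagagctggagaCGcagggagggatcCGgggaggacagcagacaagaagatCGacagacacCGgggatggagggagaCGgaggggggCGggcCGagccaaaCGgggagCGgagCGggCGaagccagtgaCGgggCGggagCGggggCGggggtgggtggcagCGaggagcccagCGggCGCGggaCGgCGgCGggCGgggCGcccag
Pou3f2: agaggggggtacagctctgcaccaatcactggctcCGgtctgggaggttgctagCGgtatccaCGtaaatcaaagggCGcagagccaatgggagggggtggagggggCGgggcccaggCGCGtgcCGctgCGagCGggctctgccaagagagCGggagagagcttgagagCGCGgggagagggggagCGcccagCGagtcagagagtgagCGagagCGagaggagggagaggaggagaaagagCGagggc
Hes5: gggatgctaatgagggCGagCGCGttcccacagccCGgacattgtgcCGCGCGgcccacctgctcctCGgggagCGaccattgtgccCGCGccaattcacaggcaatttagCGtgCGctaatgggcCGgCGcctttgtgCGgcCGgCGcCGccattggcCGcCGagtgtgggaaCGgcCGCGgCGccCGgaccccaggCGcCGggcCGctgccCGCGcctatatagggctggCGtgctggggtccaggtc
Neurod6: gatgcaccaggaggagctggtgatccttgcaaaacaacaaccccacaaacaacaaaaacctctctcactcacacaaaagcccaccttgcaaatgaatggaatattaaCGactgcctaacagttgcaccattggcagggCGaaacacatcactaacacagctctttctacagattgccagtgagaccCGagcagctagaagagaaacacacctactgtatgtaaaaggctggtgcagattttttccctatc
They lie at chr2:71546755-71547004 on the minus strand (Dlx2), chr3:127632886-127633135 on the plus strand (Neurog2), chr2:38339031-38339280 on the plus strand (Lhx2, the first of 2 listed starts), chr4:22488367-22488616 on the minus strand (Pou3f2), chr4:154960673-154960922 on the plus strand (Hes5) and chr6:55681264-55681513 on the minus strand (Neurod6). Dlx2 held 24 CpGs, Neurog2 8 and Lhx2 25, while Pou3f2 held 18, Hes5 32 and Neurod6 3. A CpG-rich window was thus found both among genes that rose (Dlx2, Lhx2) and among genes left unread (Hes5), and a window with fewer CpGs in both as well (Neurog2, Neurod6).

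The comparison of adult control with the libraries labelled E13.5 asked which of these factors were read in the adult cells. Nearly none of their RNA was found in adults. Of the 26 members tested, all 26 were lower in adult control than in the E13.5 libraries (32.8% of all 15452 genes tested were lower, 19.5% higher) and 0 were higher. This count is not independent support, since 18 of the 26 reached the minimum for testing through their E13.5 values alone. The median log2 fold change of the 26 was -7.07, or -7.15 from pooled read rates with unread genes at their bound, against -0.20 over all genes tested. Under quantile normalization 4800 of all genes were higher and 3810 lower in adult control, against 3008 and 5066 as deposited, and the calls of Emx1, Neurod6, Tbr1 and Myt1l were lost (adjusted p = 0.0764, 0.0969, 0.213 and 0.162). Neurog1, Gsx2 and Dlx5 were too low to be tested. No read was counted in any of the 9 adult libraries for 10 of the 29 members, and for 13.7% of all genes. In a library, no read allows up to 3 reads if reads are independent, a normalized count of 2.43 to 4.17 among the adult libraries. If both mates of a pair were counted as reads, the limit is higher.

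Among the dorsal patterning factors, Lhx2, a LIM homeodomain protein that sets cortical identity, remained readable in adults. Its values were 17.3, 8.13 and 63.1 in adult control libraries, against 3545, 4882 and 4703 in E13.5 libraries. Adult control differed by -7.62 on the log2 scale (SE 0.59, adjusted p = 1.07e-06 with limma). Otx1, a homeodomain factor of the forebrain and midbrain, also kept a low level, with 8.67, 2.03 and 43.4 in adult control and 421, 430.1 and 470.4 at E13.5 (log2 fold change -5.34, SE 0.79, adjusted p = 1.66e-04). For both genes adult control replicate 3 stood above replicates 1 and 2, and no adult library overlapped with an E13.5 one. Pax6, a paired-box factor of pallial progenitors, had 0, 0 and 0.986 in adult control and 576, 547 and 539 at E13.5. Emx2, a homeodomain factor that grades the cortex along its axes, had no read in adults and 416, 508 and 562 at E13.5, which is at least 515-fold lower in adult control. Otx2 had no read in adult control against 663.5, 617 and 656 at E13.5 (at least 678-fold lower). Emx1, the sister gene of Emx2, was low at both ages, with 1.73, 0 and 0 in adult control and 14.3, 48.6 and 42.0 at E13.5. All folds given as "at least" set the adult group at 3 reads in all, and they are too large if both mates of a pair were counted as reads.

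The neurogenic cascade was almost absent from the adult libraries. Neurog2, the proneural factor that starts glutamatergic neurogenesis, had no read in adult control and 14.3, 72.8 and 49.6 at E13.5 (at least 46.7-fold lower in adults). Neurod1, which drives neuronal differentiation, had no read in adult control and 46.1, 187 and 162 at E13.5. Tbr1, a T-box factor of deep-layer neurons, had 4.34, 6.10 and 1.97 in adult control and 17.5, 172 and 163 at E13.5 (log2 fold change -4.06, SE 0.77, adjusted p = 0.00105). These genes shared a low value in E13.5 replicate 1. Eomes, the T-box factor of intermediate progenitors, did not, with 34.96, 32.9 and 38.2 at E13.5 against 0, 0 and 1.97 in adult control. Neurod2 and Neurod6, of later neurons, were unread in adult control and ranged at E13.5 over 4.77 to 116 and 3.18 to 31.2. Neurog1 had reads in E13.5 replicate 2 only (3.47).

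Dlx1 and Dlx2 are neighbouring homeobox genes on mouse chromosome 2 that direct interneuron formation. Dlx2 had 1.73, 2.03 and 3.94 in adult control and 566, 589 and 636 at E13.5 (log2 fold change -7.44, SE 0.53, adjusted p = 5.57e-07). Dlx1 had 0, 0 and 1.97 in adult control and 195, 188 and 244 at E13.5 (log2 fold change -7.18, SE 0.60, adjusted p = 2.01e-06). An antisense transcript, Dlx1as, overlaps Dlx1, and whether the counting used strand is not given, so their reads cannot be told apart. Gsx2, the ventral progenitor factor upstream of the Dlx genes, reached 4.77, 12.1 and 8.59 at E13.5, and Dlx5 reached 4.77, 17.3 and 5.73. Neither had an adult read.

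Oligodendrocyte lineage and progenitor factors had at most 1 read each in adult control. Olig2, the bHLH factor of ventral progenitors and oligodendrocytes, had no read in an adult library and 1728, 1853 and 1833 at E13.5 (at least 1892-fold lower in adult control). Olig1, its neighbour on chromosome 16, had no read in adult control and 2891, 2291 and 2118 at E13.5 (at least 2580-fold lower). Pou3f3, a POU-domain factor of cortical progenitors, had 0, 0 and 0.986 in adult control and 4240.0, 7252 and 7166 at E13.5 (log2 fold change -12.23, SE 0.63, adjusted p = 5.33e-08). In adult control these 3 genes had no more than 1 read between them. Pou3f2, its paralog, had no adult read and 303, 544 and 497 at E13.5. Pou3f4 had none in adult control and 148, 119 and 105 at E13.5. Nkx2-2, a ventral homeodomain factor that promotes oligodendrocyte differentiation, had none in adult control and 33.4, 19.9 and 29.6 at E13.5. Hes5, a Notch effector that keeps progenitors undifferentiated, had no adult read and 52.4, 27.7 and 42.0 at E13.5.

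Of the neuronal identity factors, Bcl11b, a zinc-finger factor of corticospinal neurons, had no adult read and 537, 1008 and 971 at E13.5 (at least 867-fold lower in adult control). Insm1, a zinc-finger factor of newborn neurons and endocrine cells, had none in adult control and 558, 699.7 and 720.4 at E13.5. Bcl11a had none in adult control and 135.1, 287 and 310.1 at E13.5. Onecut2 had 0, 0 and 1.97 in adult control and 34.96, 50.3 and 80.2 at E13.5 (log2 fold change -5.21, SE 0.59, adjusted p = 2.12e-05). Myt1l, a zinc-finger repressor of non-neuronal genes, had the largest adjusted p, with 7.81, 0 and 13.8 in adult control and 30.2, 217 and 195 at E13.5 (log2 fold change -4.44, SE 1.29, adjusted p = 0.0136). That call was lost when near-identical libraries were averaged (adjusted p = 0.115) and when adult control replicate 2 (0.0584), E13.5 replicate 2 (0.0539) or E13.5 replicate 3 (0.0518) was left out. With the averaging, 3413 of all genes were lower, against 5066 in the main fit.

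Levels of different genes were compared per kilobase of exon. At E13.5 the order began with Olig1 (1126 ± 188 normalized counts per kb, SD, n = 3), Lhx2 (996 ± 165), Pou3f3 (839 ± 231) and Olig2 (713 ± 26.5). Each of these 4 lay within the spread of its neighbour in that order. A gap separated them from Insm1 (213 ± 28.6), Dlx2 (209 ± 12.6), Emx2 (165 ± 24.7) and Otx2 (153 ± 5.84), of which Insm1 and Dlx2, and likewise Emx2 and Otx2, lay within their spread. The next 17 ran from Bcl11b (103 ± 32.3) to Eomes (8.51 ± 0.634). At the low end stood Gsx2 (5.10 ± 2.21), Dlx5 (4.10 ± 3.09), Onecut2 (3.40 ± 1.42) and Neurog1 (0.686 ± 1.19).

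The 3 E13.5 libraries did not hold the factors in equal proportion. Replicate 1 had far less of the neurogenic cascade, whose members summed to 121 there against 616 and 505 in replicates 2 and 3, or 21.6% of the mean of those 2. The neuronal identity factors stood at 57.1% and the progenitor factors at 60.2% of that mean. The progenitor sum was mostly Pou3f3 (58.8%), and of these 4 factors 2 were lowest and 2 highest in replicate 1. The oligodendrocyte lineage factors were at 114% and the ventral ones at 90.6%. Of the 29 members, 20 were lowest in replicate 1, as were 43.6% of all genes tested. Neurod2 was at 5.27%, Tbr1 at 10.4%, Neurod6 at 11% and Myt1l at 14.7% of the mean of replicates 2 and 3, while Eomes was at 98.3%, Pax6 at 106% and Hes5 at 150.4%. Other lists moved with this difference. The 20 midbrain, hindbrain and spinal factors summed to 342% of the mean of replicates 2 and 3, the 10 neuron markers to 73.4% and the 8 neural progenitor markers to 66.6%. The 6 oligodendrocyte lineage markers summed to 299%, most of it from Pdgfra (2733 in replicate 1, against 205 and 189.9 in replicates 2 and 3), while Cspg4 was lower in replicate 1 (514, against 798 and 799). The part of these markers in the result was not tested, and the contrast, with 1 library on one side, was given no test.

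**Figure D2:**
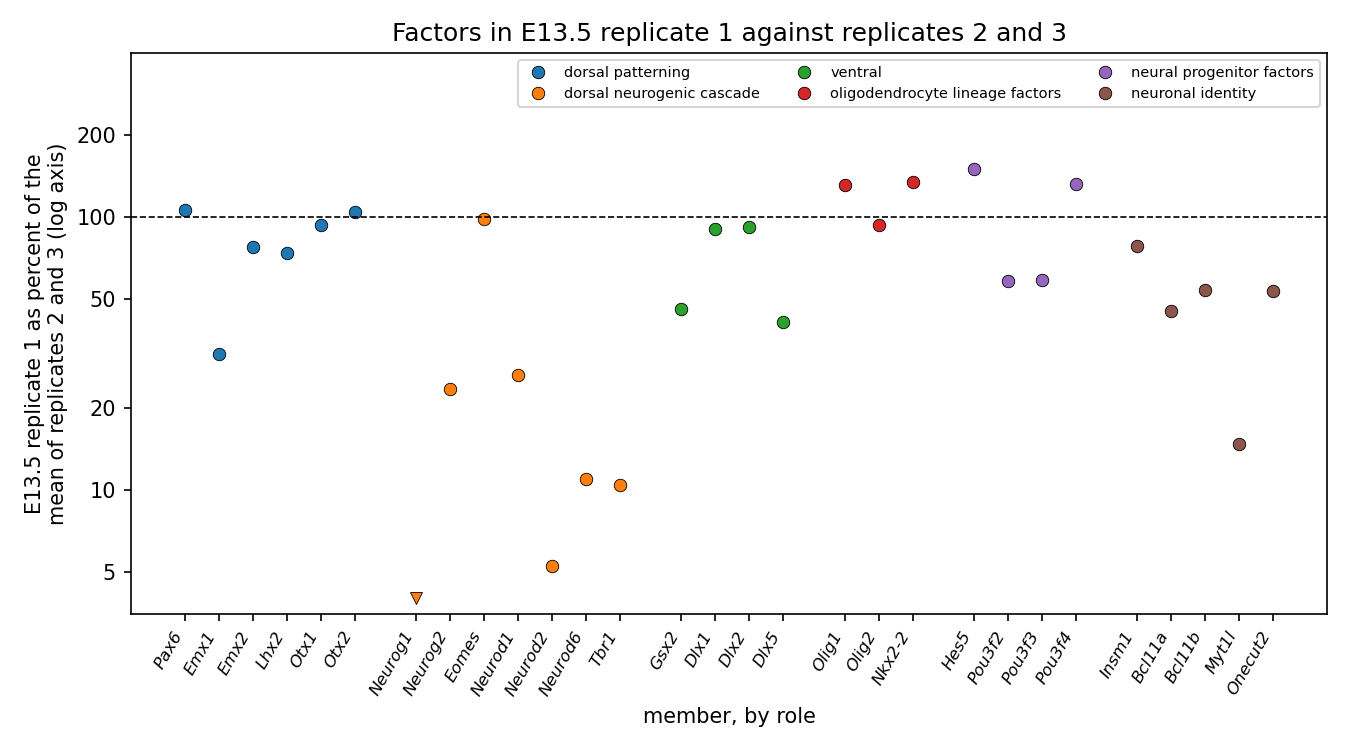
Each factor in E13.5 replicate 1 as a percent of the mean of E13.5 replicates 2 and 3 (log axis, dashed line at 100), grouped and colored by role. Neurog1, with no read in replicate 1, is drawn as a triangle at the lower edge; the neurogenic cascade other than Eomes lies below 30 percent, and the oligodendrocyte lineage factors lie near or above 90 percent.

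The comparison of MS-275 with adult control asked which of the silent factors were read after class I histone deacetylases were inhibited. Onecut2 rose to a level above that of the E13.5 libraries, Bcl11a, Dlx1, Dlx2 and Neurog2 appeared at a low level, and Lhx2 and Otx1 rose less. Of 26 members tested, 7 were higher and 0 lower with MS-275, where 30.3% of all genes tested were higher and 22.7% lower. The share of members that rose was near that of all genes, but 18 of the 26 reached the minimum for testing through their E13.5 values alone. None of those 18 was called, so the share depends on that filter. Members with no read in any library of the group numbered 12 of 29 with MS-275, against 18 of 29 in adult control. The groups have 4 and 3 libraries, and over all genes 15614 to 16720 had a read in an MS-275 library, against 13948 to 14556 in an adult control library. Fold changes below come from log2(normalized count + 1), so where adult control had no read their size is set by the added 1 and the bound from reads is given.

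Onecut2, a cut-homeodomain factor of retinal, motor and other neurons, had 438, 818, 679.6 and 823 with MS-275, against 0, 0 and 1.97 in adult control. The 2752 reads with MS-275 against 2 in control gave a ratio of 1054, with a 95% interval of 292 to 8709 for counting error only. The log2 fold change was 8.86 (SE 0.55, adjusted p = 1.22e-06 with limma). No MS-275 library came near a control library. The gene lies on the plus strand at chr18:64340020-64400987 (mm10), with no overlapping gene annotated there.

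Bcl11a, a zinc-finger factor of cortical projection neurons that also represses fetal globin, had 11.9, 54.6, 19.5 and 17.7 with MS-275 and no read in adult control. The ratio was at least 26.0, and the log2 fold change 4.52 (SE 0.58, adjusted p = 8.98e-05). MS-275 replicate 2 lay well above the other 3. It lies on the plus strand at chr11:24078056-24174123, where 2 transcripts on the other strand overlap it (Gm12064 and 4930538E20Rik). Its paralog Bcl11b had no read with MS-275.

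The ventral pair rose together. Dlx2 had 57.1, 28.4, 56.8 and 37.9 with MS-275, against 1.73, 2.03 and 3.94 in adult control (ratio of pooled rates 18.5, 95% interval 9.19 to 43.4; log2 fold change 3.68, SE 0.50, adjusted p = 1.18e-04). Dlx1 had 18.8, 17.5, 6.49 and 22.7 with MS-275, against 0, 0 and 1.97 in adult control (ratio 24.5, interval 6.52 to 207; log2 fold change 3.47, SE 0.57, adjusted p = 4.26e-04). The groups did not overlap for either gene. Dlx1 lies at chr2:71528113-71533981 on the plus strand and Dlx2 at chr2:71543408-71546754 on the minus strand, and Dlx2 overlaps no annotated gene. Gsx2 and Dlx5 had no read with MS-275.

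In the neurogenic cascade, Neurog2 had 17.1, 6.56, 19.5 and 10.1 with MS-275 and no read in adult control (at least 14.8-fold higher, log2 fold change 3.73, SE 0.63, adjusted p = 5.15e-04). The gene lies at chr3:127633135-127635631 on the plus strand and overlaps no other. Other cascade members had few or no reads. Neurod1, Neurod6 and Neurog1 had no read with MS-275, Neurod2 had 4 reads in all and Eomes 5. Tbr1 had 10.2, 17.5, 11.4 and 7.58 with MS-275, against 4.34, 6.10 and 1.97 in adult control. The groups did not overlap, but the difference missed the threshold (log2 fold change 1.33, SE 0.72, adjusted p = 0.144). It passed with the library set as a block (0.0235), with the 2 groups alone (0.0452) and without E13.5 replicate 1 (0.0219).

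Of the dorsal patterning factors, 2 passed the test with overlapping groups. Otx1 had 35.8, 80.9, 32.4 and 65.7 with MS-275, against 8.67, 2.03 and 43.4 in adult control (log2 fold change 2.22, SE 0.74, adjusted p = 0.0258). Lhx2 had 107, 63.4, 102 and 47.98 with MS-275, against 17.3, 8.13 and 63.1 in adult control (log2 fold change 1.80, SE 0.55, adjusted p = 0.0177). Lhx2 (chr2:38339281-38369733) is overlapped on the other strand by Gm27197 and Gm13584, and Otx1 (chr11:21994764-22002897) by no gene. Adult control replicate 3 was the high control for both. The adult libraries were split into 2 sets by the sign of the main component of their deviations from group means (52.6% of that spread). Deviations within a group cancel out, so such a split divides each group whatever the data. Within the set that held MS-275 2 and 4 with adult control 3, the log2 difference was -0.19 for Lhx2 and 0.74 for Otx1. Within the other set, of MS-275 1 and 3 with adult control 1 and 2, it was 3.03 for Lhx2 and 2.70 for Otx1. Averaging near-identical libraries ended both calls (adjusted p = 0.206 for Lhx2 and 0.249 for Otx1). In that fit 2266 of all genes were higher, against 4677 in the main fit. Leaving out adult control replicate 1 (0.0602 for Lhx2, 0.0726 for Otx1) or 2 (0.0790 and 0.112) also ended both calls. For Otx1, leaving out MS-275 replicate 2 (0.0648) or 4 (0.0591) did so too. Onecut2, Bcl11a, Dlx1, Dlx2 and Neurog2 were higher within both sets. Emx2 and Otx2 had no read with MS-275, and Pax6 had 1.71, 3.28, 0 and 5.05 against 0, 0 and 0.986 in adult control (adjusted p = 0.0981, or 0.00940 without MS-275 replicate 3).

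The oligodendrocyte lineage and progenitor factors were not called with MS-275. Olig2, Hes5 and Pou3f2 had no read there. Olig1 and Nkx2-2 had 2 reads each, Pou3f4 had 1 read, Pou3f3 had 5 and Insm1 had 4, over the 4 libraries. Myt1l had 23 reads with MS-275 and 23 in adult control (ratio 0.766, interval 0.411 to 1.43). By role, the median log2 fold change was 3.58 for the 2 ventral factors tested, 0.65 for the neuronal identity factors, 0.60 for dorsal patterning, 0.59 for the neurogenic cascade, 0.35 for the oligodendrocyte lineage and 0.15 for progenitor factors, against 0.19 over all genes tested. These medians cover tested members only, so they cannot rank the roles. Gsx2 and Dlx5, unread in adults, were left untested, while Emx2, Neurod1 and Olig2, also unread, were tested through their E13.5 values alone. The medians of 0.35 and 0.15 rest on a few reads and the added 1.

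**Figure D3:**
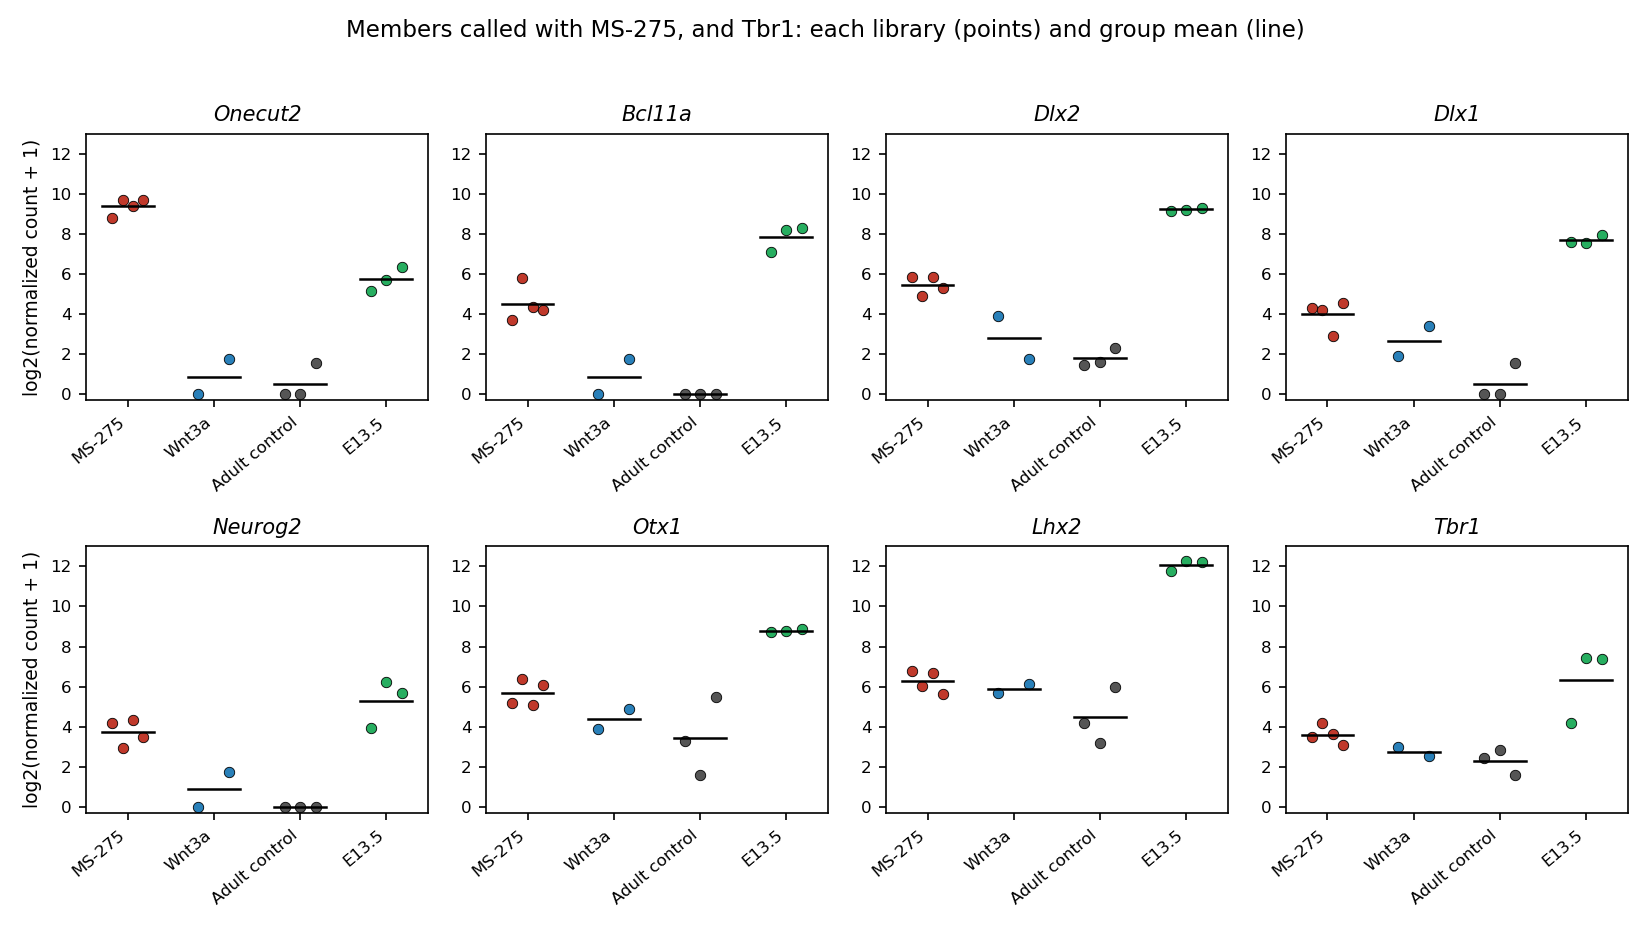
Level, as log2(normalized count + 1), of the 7 factors called with MS-275 and of Tbr1, which was not called, in each library (points) with the group mean (line). For Onecut2 all 4 MS-275 libraries lie above the 3 E13.5 libraries, while for Lhx2 and Otx1 1 adult control library reaches the MS-275 range.

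Markers of cell types moved along with these genes. All 8 endothelial markers were lower with MS-275 than in adult control (median log2 fold change -4.01) and summed to 16516 to 30804 with MS-275, against 224662 to 290948 in adult control. Emcn, an endothelial surface mucin, had the smallest adjusted p of the marker lists (log2 fold change -6.58, SE 0.37, adjusted p = 6.52e-07), followed by Pecam1 (-4.71, SE 0.35, 2.87e-06). Of 10 neuron markers, 6 were higher and 1 lower. Snap25, of the synaptic release machinery, had 112, 198, 177 and 109 with MS-275, against 0, 0 and 1.97 in adult control (log2 fold change 6.65, SE 0.54, adjusted p = 4.84e-06). Dcx, a defining marker of young neurons named here after its values were seen, had no read with MS-275. Of the 8 neural progenitor markers 1 was higher and 0 lower. It was Fabp7, with 3.41, 4.37, 4.87 and 0 with MS-275 and no read in adult control (log2 fold change 1.78, SE 0.56, adjusted p = 0.0198), while Sox1, Sox2 and Sox3 had no read in either group. The neuron list summed to 7186 to 8855 with MS-275 and 9871 to 21173 in adult control, most of it from Nefl, a neurofilament gene that the adult control cells also read. Of 6 neuroendocrine and islet markers 4 were tested and 2 were higher, of 6 astrocyte markers 5 were tested and 1 was higher, and of 6 oligodendrocyte lineage markers 4 were tested and 2 were higher. The part of these markers in the members' values was not tested.

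Other forebrain factors outside the 29 moved both ways. Of 45 listed, 40 were tested, and 8 were higher and 10 lower with MS-275, with a median log2 fold change of 0.00. Lhx6, an interneuron factor, had the smallest adjusted p, with 96.4, 48.1, 69.7 and 44.2 with MS-275, against 1050, 1006 and 887 in adult control (log2 fold change -3.97, SE 0.31, adjusted p = 3.64e-06). It was thus a forebrain gene that the adult control cells read at a high level and that fell with MS-275. Of the 20 midbrain, hindbrain and spinal factors, 9 were tested, and 2 were higher and 1 lower.

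MS-275 was also set against E13.5, to place the levels after treatment beside those of the E13.5 libraries. The MS-275, adult control and E13.5 libraries serve in several comparisons, so these are not independent. Here 1 member was higher, 24 were lower and Neurog2 was not called (27.2% of all genes tested were higher and 36.1% lower, that is 4204 and 5571 genes, or 5868 and 4521 under quantile normalization). The count of lower members is not independent support, since 18 of the 26 tested reached the minimum for testing through their E13.5 values alone. Onecut2 averaged 690 ± 180 (SD, n = 4) with MS-275 and 55.1 ± 23 (n = 3) at E13.5, a ratio of 12.4 with a counting interval of 10.7 to 14.5 (log2 fold change 3.66, SE 0.55, adjusted p = 1.59e-04). Neurog2 averaged 13.3 ± 5.99 with MS-275 and 45.6 ± 29.5 at E13.5, and the groups overlapped (log2 fold change -1.54, SE 0.63, adjusted p = 0.0503). That difference passed without E13.5 replicate 1 (-2.20, adjusted p = 0.00905), MS-275 replicate 3 (0.0462) or either Wnt3a library (0.0379 and 0.0384), with a pseudocount of 8 (0.0194) and with equal totals (0.0404). With near-identical libraries averaged, 22 members were lower, and the calls of Tbr1 (0.139) and Myt1l (0.0616) were lost. Over all genes, 3759 were lower in that fit, against 5571. The other factors that rose stayed far below E13.5. Otx1 stood at 12.2% of its E13.5 mean, Bcl11a at 10.6%, Dlx1 at 7.82%, Dlx2 at 7.55% and Lhx2 at 1.83%. By summed level, the neuronal identity factors reached 37.1% of E13.5, nearly all of it Onecut2, the ventral factors 7.45%, the neurogenic cascade 6.52% and dorsal patterning 2.08%, while the oligodendrocyte lineage factors reached 0.0195% and the progenitor factors 0.0237%.

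**Figure D4:**
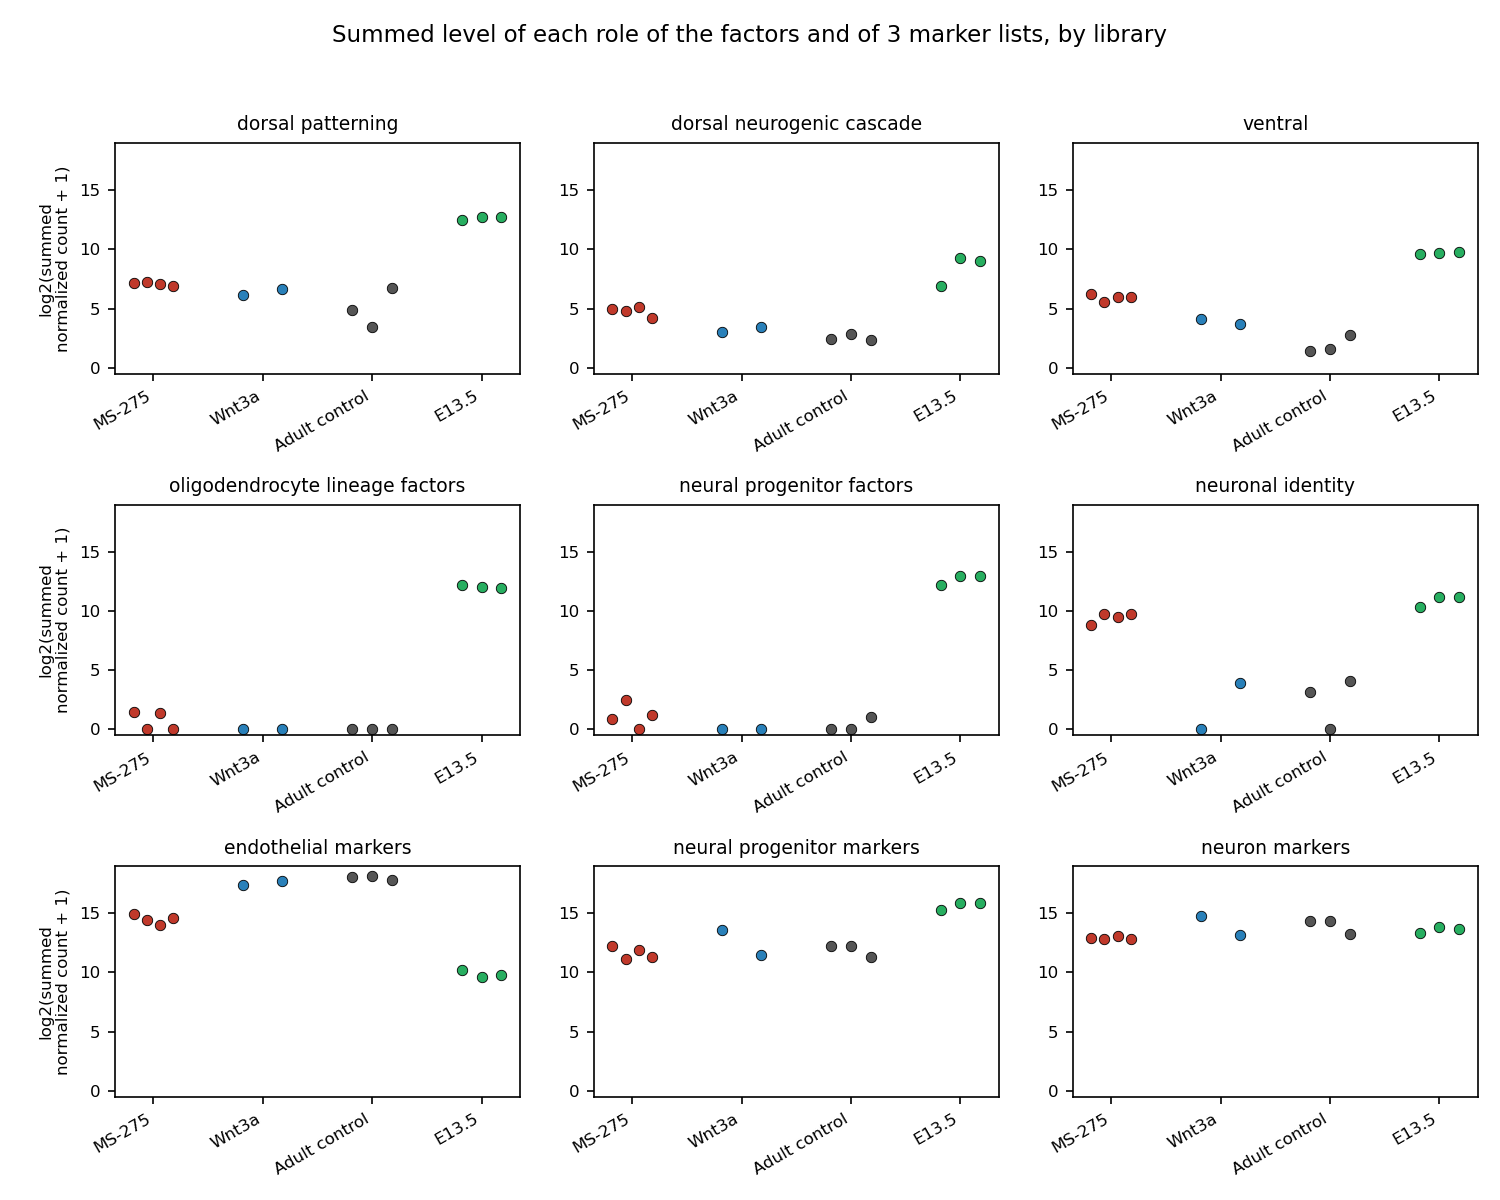
Summed normalized count of each role and of 3 marker lists, as log2(sum + 1), in each library by group. The dorsal patterning, neurogenic cascade, ventral and neuronal identity sums are higher in all 4 MS-275 libraries than in any adult control library, the oligodendrocyte lineage and progenitor factors stay near 0 in adults, and the neural progenitor and neuron marker sums of adult libraries rest mainly on Nes and Nefl.

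Wnt3a, a ligand of the canonical Wnt pathway, was compared with adult control in the same fit. No member was called higher or lower with limma, and neither was any gene of the table (0% of 15452 in each direction). At an unadjusted p under 0.05, 2 of 26 members (Dlx1 and Pax6) and 1311 of all genes (8.48%) passed with limma. Among members edgeR called 0 after adjustment and 3 before it, and so did DESeq2, while over all genes edgeR called 0 and DESeq2 41 after adjustment. Before adjustment, 8.11% of all genes passed with edgeR and 10.1% with DESeq2. Dlx1 had 2.78 and 9.55 with Wnt3a, against 0, 0 and 1.97 in adult control (ratio 10.1, interval 2.16 to 94.9; log2 fold change 2.13, SE 0.68, adjusted p = 0.575). Pax6 had 2.78 and 3.58 with Wnt3a, against 0, 0 and 0.986 in adult control (log2 fold change 1.73, SE 0.68, adjusted p = 0.576). Lhx2 had 50.01 and 69.2 with Wnt3a, against 17.3, 8.13 and 63.1 in adult control (log2 fold change 1.44, SE 0.66, adjusted p = 0.587). For Dlx1 and Pax6 the Wnt3a libraries lay above the control ones by a few reads, and for Lhx2 the groups overlapped. Without adult control replicate 3, Lhx2 (2.21, adjusted p = 0.0184) and Dlx1 (2.66, adjusted p = 0.0326) passed. In that fit 953 of all 15452 genes were higher and 501 lower with Wnt3a, so the change was not particular to these factors. Onecut2 had 0 and 2.39 with Wnt3a, Bcl11a and Neurog2 likewise 0 and 2.39, and 17 of 29 members had no read in either Wnt3a library.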

How the data were processed

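The 29 members, their roles and the marker lists were chosen with earlier results of these data known. Per the labels and methods, RNA with an integrity number above 7 went into KAPA mRNA libraries, sequenced as read pairs. Reads were inspected (FastQC), trimmed (cutadapt) and mapped to mm10 (STAR), and reads on GENCODE genes were counted with featureCounts (submitters' notes; the methods name in-house scripts). For these tools no version, and for the counting no strand setting, is stated in the sources used here. The deposited signal values are normalized counts, which the authors made by dividing each library's counts by a DESeq2 size factor. Of 21638 names, 26 that a spreadsheet had turned into dates (0.21% to 0.28% of the reads) and 1 row with a missing value were left out.

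Divided by the worth of 1 read, 100.0% of values fell within 0.01 of a whole number. Between 69.4% and 73.2% of the genes with 1 to 50 reads had an even count, so the mates of a pair appear to have been counted as separate reads. The counting intervals (exact, 95%) are then too narrow, and the folds given as "at least" too large. Log2(normalized count + 1) was fitted with limma 3.58.1 (R 4.3.3; trend, robust, group as the only factor, all 12 libraries), over 15452 genes that reached 10 in 2 or more libraries, and p-values were adjusted by Benjamini-Hochberg (threshold 0.05). Fold changes are the group named first minus the second. Read ratios pool the reads of a group over its size factors, and a group with no read was set at 3 reads. All members were named. Of the other lists, genes with the smallest adjusted p were named, and further ones, such as Dcx, Fabp7, Nefl and Pdgfra, outside that rule. Positions and exon lengths are from GENCODE M21 on mm10. Promoters are from RefSeq. The settings varied were the pseudocount (0.5, 8), the filter (none, 50), the scaling (equal totals, quantile) and the libraries in the fit (2 groups alone). Further fits used the replicate number as a block, edgeR 4.0.16 and DESeq2 1.42.0 on the recovered reads, averaging near-identical libraries and leaving out each library. A fit of the adult libraries with the library set as a block was added after seeing the data. The sample titles number each library of a group as its own biological replicate, and the methods count a pooled litter as a replicate. Nothing further says that libraries of a group are separate cultures.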

Additional observations from a re-analysis of the deposited data

Results flagged for a closer look

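Among the 4 MS-275 libraries, 23 sets of values with any reads (members and role sums) were checked for a library far from the others. The cut marks about 1 of 20 groups of normally distributed values. That rate does not hold here, since a gene read in 1 library only is always marked. The 4 that were marked each rest on 1 library with few reads while the other 3 libraries had none. Insm1 had a normalized count of 5.05 in MS-275 replicate 4 (4 reads), Nkx2-2 1.71 in replicate 1 (2 reads), Olig1 1.62 in replicate 3 (2 reads) and Pou3f4 1.26 in replicate 4 (1 read).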

How the results depend on the processing

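Of 8 counts of members called, by comparison and direction, 186 of 188 values under the alternatives stayed within 1.5 times the count reported. A count reported as 0 could match only at 0, so this range says little about it. A fall from 7 to 5 members higher with MS-275 than in adult control was within the range. The exceptions were 3 members lower with MS-275 than in adult control under quantile normalization, against 0, and 2 members higher with Wnt3a than in adult control without adult control replicate 3, against 0 (0 to 2 when each library was left out in turn). In that Wnt3a fit, 953 of all 15452 genes were higher and 501 lower. The 3 members lower with MS-275 were Emx2, Olig2 and Hes5, which had no read in either group. Quantile normalization gives tied zeros a value that differs between libraries, and over all genes it moved the median for MS-275 against adult control to 0.0098 on the log2 scale, against 0.19 as deposited. For Otx1 with MS-275, the call was also lost with edgeR (adjusted p = 0.108), with only the 2 groups (0.0680) and under quantile normalization (0.126). For Lhx2 it was lost with only the 2 groups (0.0570) and under quantile normalization (0.0502). DESeq2 did not call Neurod6 for adult control against E13.5 (0.0594), and Tbr1 (0.0973) was lost for MS-275 against E13.5 under quantile normalization. Onecut2, Bcl11a, Dlx1 and Dlx2 passed for MS-275 against adult control under every alternative run, and Neurog2 under all but the filter at 50, which left it untested. The cause of these changes was not tested. Replicate numbers did not pair the libraries: the correlation of deviations from group means was -0.44 to 0.44 over 15 same-numbered pairs. With the replicate block, 6 members were higher with MS-275 than in adult control, with Otx1 lost (log2 fold change 2.09, adjusted p = 0.0730). Depth limits the low members most: Neurog2 and Dlx1 rest on 58 and 64 reads in all with MS-275.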
